A study of Mus musculus with 9 samples.

Results

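Dlk1, Meg3, Rtl1, Rian and Mirg lie together in an imprinted locus on mouse chromosome 12, and their RNA was followed here in embryonic stem cells with an intact, a newly deleted or a constitutively knocked out Xpc gene. Members were taken as every non-control array probe that the files name Dlk1, Meg3, Rtl1, Rian or Mirg. That gave 8 of 55681 probes, for 4 of the 5 genes: 3 for Meg3, 2 for Dlk1, 2 for Mirg and 1 for Rtl1, while Rian had 0 probes under that name. The genes were chosen with the levels and differences given below already known, so those are a description and carry no test.

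The null cells were constitutive Xpc knockouts (Xpc KO). The induced cells were Xpc f/f with +Tx, sampled 4 days after Xpc deletion. The floxed cells were Xpc f/f with -Tx and no deletion. Deletion used Cre and loxP, and all 3 groups were embryonic stem cells, with 3 samples each and 1 single-colour Agilent array per sample. Xpc encodes a DNA damage sensor of nucleotide excision repair that also takes part in transcription with Oct3/4, and the study asked about that second role. The labels do not say which promoter drove Cre, whether the null cells are 1 clone, or whether the replicates were separate cultures, so the spread between arrays may be technical.

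Imprinted genes are read from 1 parental copy. At this locus the protein genes Dlk1, Rtl1 and Dio3 come from the paternal copy. The noncoding RNAs Meg3, Rian and Mirg come from the maternal copy, all on the plus strand, and carry large clusters of small nucleolar RNAs and microRNAs. A methylated control region upstream of Meg3 sets which copy is read. In mouse stem cell lines the maternal RNAs are often silenced, and their level is used as a sign of full developmental potential.

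The following 6 probes carry values for the maternal RNAs and for the transcript 1110006E14Rik, which lies between Rtl1 and Mirg. The 60-base sequences are those of the arrays and their positions are in mm9, all on the plus strand: Meg3 A_52_P196568 at chr12:110799558-110799617, Meg3 A_51_P455997 at chr12:110809678-110809737, 1110006E14Rik A_55_P2419296 at chr12:110834811-110834870, 1110006E14Rik A_55_P2419299 at chr12:110836685-110836744, Mirg A_55_P2336173 at chr12:110979653-110979712 and Mirg A_66_P121059 at chr12:110987569-110987628. Whether each lies in an exon or an intron of mm9 was not analysed here.
Meg3 A_52_P196568: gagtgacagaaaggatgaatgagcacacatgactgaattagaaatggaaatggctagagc
Meg3 A_51_P455997: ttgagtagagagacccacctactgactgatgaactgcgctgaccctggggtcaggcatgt
1110006E14Rik A_55_P2419296: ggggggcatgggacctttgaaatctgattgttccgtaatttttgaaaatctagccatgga
1110006E14Rik A_55_P2419299: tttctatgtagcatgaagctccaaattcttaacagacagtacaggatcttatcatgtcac
Mirg A_55_P2336173: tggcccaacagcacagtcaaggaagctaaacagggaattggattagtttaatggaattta
Mirg A_66_P121059: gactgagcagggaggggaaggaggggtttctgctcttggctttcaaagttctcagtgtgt

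The promoter of Meg3 is shown because Meg3 is the first maternal RNA of the locus and stands at the head of the stretch in which other probes rose in null cells. RefSeq places its 300 bases, 250 before and 50 from the gene's start, at chr12:109540746-109541045 of GRCm38.p6 on the plus strand. The motifs below were searched on both strands, and capitals mark the matches from left to right: TGCCGC of the imprint protector Zfp57 as GCGGCA on the opposite strand, CCAAT, the cAMP response element TGACGTCA, and the TATA box TATAAA, which matched on both strands in overlapping letters.
Meg3 promoter: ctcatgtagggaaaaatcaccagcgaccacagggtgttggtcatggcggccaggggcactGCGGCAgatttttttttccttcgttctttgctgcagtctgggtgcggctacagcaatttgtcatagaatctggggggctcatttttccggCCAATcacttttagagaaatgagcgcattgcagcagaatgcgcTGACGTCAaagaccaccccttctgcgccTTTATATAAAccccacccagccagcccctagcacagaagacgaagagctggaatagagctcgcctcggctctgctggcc
Among 32851 RefSeq promoters of the same length, TGCCGC was found in 11.6%, CCAAT in 37.4%, TGACGTCA in 1.79% and TATAAA in 13.6%. The Meg3 promoter held 13 CG pairs, against a median of 7 over those promoters. A match describes letters and is not a site.

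Each array had 62976 spots, and between 47.4% and 57.9% of the non-control spots were well above background. Levels below are log2 of the processed signal minus log2 of the array's 75th percentile, so 0 is the 75th percentile and 1 unit is a doubling. A level of 1 probe cannot be set against that of another. Of all probes, 27536 were kept because in null, induced or floxed cells all 3 arrays lay well above background, and 7 of the 8 member probes were among them. The targeted gene, Xpc, had levels of -0.85, -1.53 and -1.37 in null cells, -1.11, -0.68 and -1.05 in induced cells, and 0.59, 0.55 and 0.16 in floxed cells. It was below floxed cells on every null and induced array, by -1.68 in null cells (limma adjusted p = 0.00677) and by -1.38 in induced cells (limma adjusted p = 0.297 over all probes). Whether this probe lies in the deleted part was not tested. All 8 stem cell markers were kept and none passed the test in any comparison, and their summed level was 662 to 772 times the array's 75th percentile in null cells, 724 to 907 in induced cells and 782 to 878 in floxed cells.

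The arrays were spread over 3 slides in a way that follows the groups. Slide 1 held floxed 1 and 2, slide 2 held null 3 and floxed 3, and slide 3 held null 1 and 2 and all induced arrays. Floxed 3 stood apart from the other floxed arrays: its Pearson correlation across the kept probes was 0.984 with floxed 1 and 0.985 with floxed 2, against 0.993 with null 3 on its own slide, 0.991 and 0.990 with null 1 and 2, and 0.987 to 0.989 with the induced arrays on slide 3. Results that rest on floxed 3 are therefore also given without it. Induced and floxed arrays shared no slide, so slide and group cannot be told apart in that comparison.

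Meg3, a long noncoding RNA whose loss in mice disturbs the expression of the whole locus, was measured by 3 probes, and all 3 had their highest mean in null cells. Probe A_51_P455997 had levels of 4.57, 4.70 and 4.56 in null cells, 4.03, 4.51 and 4.51 in induced cells, and 4.31, 4.31 and 3.96 in floxed cells. Every null array was above every induced and every floxed array, and induced and floxed arrays overlapped. The mean was 4.61 ± 0.08 in null cells, 4.35 ± 0.28 in induced cells and 4.19 ± 0.20 in floxed cells (SD, n = 3 each). Null minus floxed was 0.42 (SE 0.17) and null minus induced 0.26 (SE 0.17). Leaving out floxed 3, the lowest floxed array here, lowered null minus floxed to 0.30.

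Probe A_52_P196568 of Meg3 had levels of 0.46, 0.63 and 0.62 in null cells, -0.59, 0.03 and 0.16 in induced cells, and -0.24, -0.38 and 0.23 in floxed cells. The null arrays again lay above all others, by 0.70 (SE 0.25) over floxed and 0.70 (SE 0.25) over induced cells. Leaving out floxed 3 raised null minus floxed to 0.88. Probe A_55_P2033407 had 2.18, 1.91 and 1.80 in null cells, 1.54, 1.94 and 1.97 in induced cells, and 1.80, 1.82 and 1.46 in floxed cells. Here the groups overlapped in every comparison, and null minus floxed was 0.27 (SE 0.17), or 0.15 without floxed 3. The Meg3 probes thus gave 2 patterns without overlap and 1 with it, and the transcript forms each probe reads were not analysed here.

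Mirg is the noncoding RNA at the far end of the maternal run and hosts a microRNA cluster. Probe A_66_P121059 had levels of 3.54, 3.75 and 3.58 in null cells, 2.86, 3.28 and 3.35 in induced cells, and 2.93, 2.92 and 2.97 in floxed cells. The 3 null arrays were the highest of the 9, and the floxed arrays were tight, at 2.94 ± 0.03 (SD, n = 3). Null minus floxed was 0.68 (SE 0.14), and null minus induced was 0.46 (SE 0.14). Probe A_55_P2336173 had 2.70, 2.77 and 2.87 in null cells, 1.71, 2.25 and 2.47 in induced cells, and 2.05, 1.96 and 2.16 in floxed cells. It gave the same order without overlap for the null arrays, with null minus floxed 0.72 (SE 0.20) and null minus induced 0.64 (SE 0.20).

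Dlk1, a membrane protein related to the Notch ligands that restrains cell differentiation, was measured by 2 probes that start 219 bases apart in mm9, at 110698502 and 110698721 on chromosome 12. The brighter probe, A_66_P117477, had levels of 0.10, 0.14 and -0.07 in null cells, -0.21, -0.41 and -0.25 in induced cells, and -0.56, -0.73 and 0.28 in floxed cells. Every null array was above every induced array, but floxed 3 was the highest of all 9 arrays. Null minus floxed was 0.39 (SE 0.27) with floxed 3 and 0.70 without it. The dimmer probe, A_55_P2105371, had -2.35, -2.28 and -2.66 in null cells, -2.81, -3.18 and -2.72 in induced cells, and -3.53, -3.25 and -2.63 in floxed cells. It was well above background on all null and induced arrays but, among floxed arrays, on floxed 3 only. Null minus floxed was 0.71 (SE 0.26). Without floxed 3 no floxed array was well above background, and the null signal was at least 1.80-fold higher, with floxed 1 and 2 at no less than the lowest signal well above background on each.

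Rtl1, a protein derived from a retrotransposon and needed in the placenta, was at the limit of detection. Its probe, A_55_P1992774 on the minus strand, was well above background on 0 of 3 null arrays, 1 of 3 induced arrays and 0 of 3 floxed arrays. Its levels were -3.87, -4.08 and -4.59 in null cells, -3.93, -3.09 and -4.45 in induced cells, and -4.83, -4.07 and -5.52 in floxed cells, and no difference is read from them. Rian, the host of the locus's small nucleolar RNAs, lies between Rtl1 and Mirg in the RefSeq order, so that stretch of the locus was read only through the unnamed and clone-named probes described below.

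**Figure D1:**
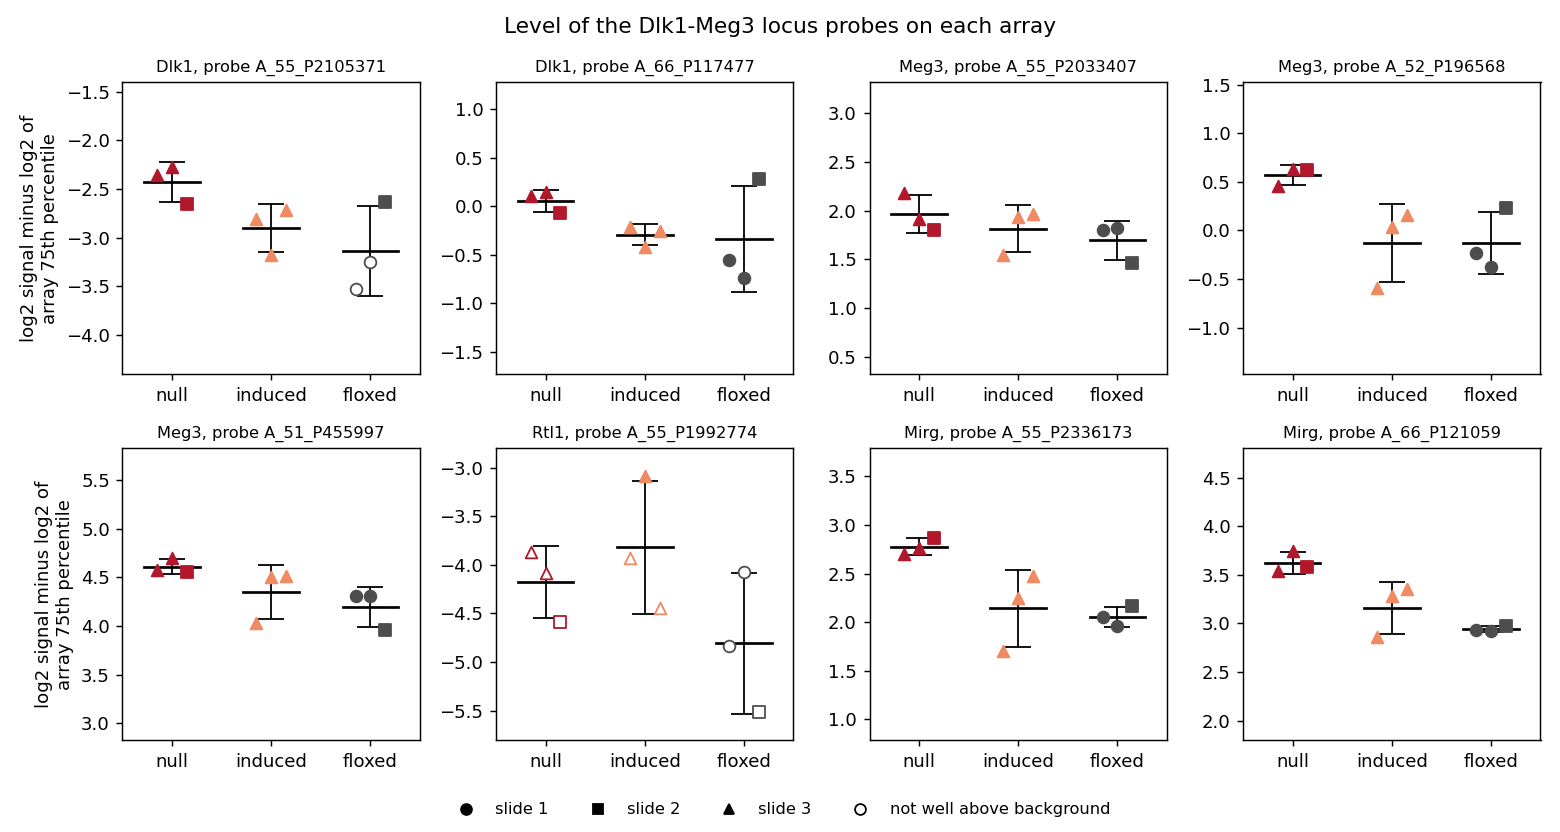
Log2 level of each of the 8 member probes (y axis, relative to the array's 75th percentile) on the 3 null, 3 induced and 3 floxed arrays (x axis, left to right). Points are arrays, symbols give the slide, open points were not well above background, and bars give the mean ± SD (n = 3); each panel spans the same number of log2 units. Both Mirg probes and 2 of 3 Meg3 probes have every null array above every floxed array, and floxed 3 is the highest floxed array of both Dlk1 probes.

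Across the 7 kept probes, the mean was highest in null cells for all 7, and for 6 the order was null, induced, floxed. The exception was Meg3 probe A_52_P196568, whose induced and floxed means differed by -0.01 (SE 0.25). All 3 null arrays exceeded all 3 floxed arrays for 4 of the 7 probes, where 12.4% of all kept probes did so. They exceeded all 3 induced arrays for 6 of the 7, where 18.5% of all kept probes did so. Induced arrays exceeded all floxed arrays for 0 of the 7, against 6.85% of all kept probes. Induced minus floxed differences lay between -0.01 and 0.24 for the kept probes and the groups overlapped for every one. Nothing is read from these counts, since the genes were chosen on the same values.

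Within slides, the Meg3 and Mirg differences kept their sign and those of Dlk1 did not. On slide 2, null 3 minus floxed 3 was 0.34, 0.38 and 0.60 for the Meg3 probes and 0.71 and 0.61 for the Mirg probes, but -0.026 and -0.35 for the Dlk1 probes. On slide 3, the mean of null 1 and 2 minus that of the induced arrays was 0.23, 0.68 and 0.29 for Meg3, 0.59 and 0.48 for Mirg, and 0.59 and 0.41 for Dlk1. Among induced cells, array 1 was the lowest for all Meg3 and Mirg probes, between -0.41 and -0.68 from the mean of the other induced arrays, and was 0.13 and 0.12 from it for the Dlk1 probes.

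The rest of the locus was read through 192 other probes within 1 Mb of the members, of which 87 were kept, and these were tested. Some may read the same RNAs as the member probes, whose genes were chosen with their values known. The tests are therefore not separate from that choice. Between Meg3 and Mirg, 44 of 69 probes were kept, and 6 of the 44 rose in null against floxed cells (13.6%, limma adjusted p under the threshold of 0.05), where 0.61% of all kept probes rose. The median of the 44 was 0.53, against 0.02 over all kept probes, and 40 were positive. Every null array was above every floxed array for 30, where this held for 12.4% of all kept probes. None of the 44 fell. Many of the 44 share a transcript interval and some overlap in position. They are not independent readings, and their counts and shares are a description. Of the 44, 33 were above background on all 9 arrays, so that no single group brought them past the filter, and 5 of these rose (15.2%, against 0.593% of all such probes), with a median of 0.54. The plus-strand probes, the strand of Meg3 and Mirg, had 5 of 32 rising and a median of 0.55, and the minus-strand probes had 1 of 12 rising and a median of 0.44, or 0 of the 6 above background on all arrays. In bulk samples, more RNA per cell and more cells with the RNA cannot be told apart.

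The clone-named transcript 1110006E14Rik gave the largest of these rises among probes that passed. Probe A_55_P2419299 had levels of 1.72, 1.91 and 1.81 in null cells, 0.48, 1.11 and 1.10 in induced cells, and 0.80, 0.61 and 0.89 in floxed cells. It rose by 1.05 (SE 0.17, limma adjusted p = 0.0284) over floxed cells and by 0.92 (limma adjusted p = 0.0451) over induced cells, and all null arrays were above all others. Probe A_55_P2419296 had 1.39, 1.47 and 1.34 in null cells, 0.00, 0.69 and 0.82 in induced cells, and 0.18, 0.44 and 0.48 in floxed cells. Its rise over floxed cells was 1.04 (limma adjusted p = 0.0456), while null minus induced was 0.90 (limma adjusted p = 0.0640).

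A further 3 plus-strand probes of unnamed long noncoding RNAs rose in null against floxed cells. The probe at chr12:110876077-110876136 of mm9 had 0.48, 0.29 and 0.55 in null cells and -0.54, -0.45 and -0.07 in floxed cells, a rise of 0.79 (limma adjusted p = 0.0460). The probes at chr12:110986374-110986433 and chr12:110986389-110986448 overlap each other and so share sequence, and lie just before the brighter Mirg probe. They rose by 0.66 (limma adjusted p = 0.0456) and 0.74 (limma adjusted p = 0.0362). A minus-strand probe at chr12:110983446-110983505 was well above background on all null arrays and 0 of 3 floxed arrays, and was at least 1.54-fold higher in null cells (limma adjusted p = 0.0404), the bound being set by the lowest signal well above background on each floxed array. It was above background on 2 of 3 induced arrays, so it was kept through null cells alone. The antisense RNA of Rtl1, 6430411K18Rik, whose microRNAs are known to cleave Rtl1 RNA in mice, had a null minus floxed difference of 0.37 (limma adjusted p = 0.364).

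Outside the stretch from Dlk1 to Mirg no kept probe passed in null against floxed cells. The 20 kept probes upstream of Dlk1 had 0 passing by limma, 3 with an unadjusted p under 0.05, and a median of -0.04. The 20 downstream of Mirg had 0 passing, 4 with an unadjusted p under 0.05, and a median of -0.13. These included Begain, which neighbours Dlk1, at -0.04 (limma adjusted p = 0.872), and Dio3, the thyroid hormone deiodinase at the end of the imprinted domain, at 0.32 (limma adjusted p = 0.501). Between Dlk1 and Meg3, 3 probes of 1 unnamed minus-strand transcript were kept, and their differences were 0.56, 0.78 and 0.81, with every null above every floxed array but 0 passing. The unadjusted p was under 0.05 for 6017 of all kept probes in this comparison and the adjusted p passed for 397, or 1.44%.

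**Figure D2:**
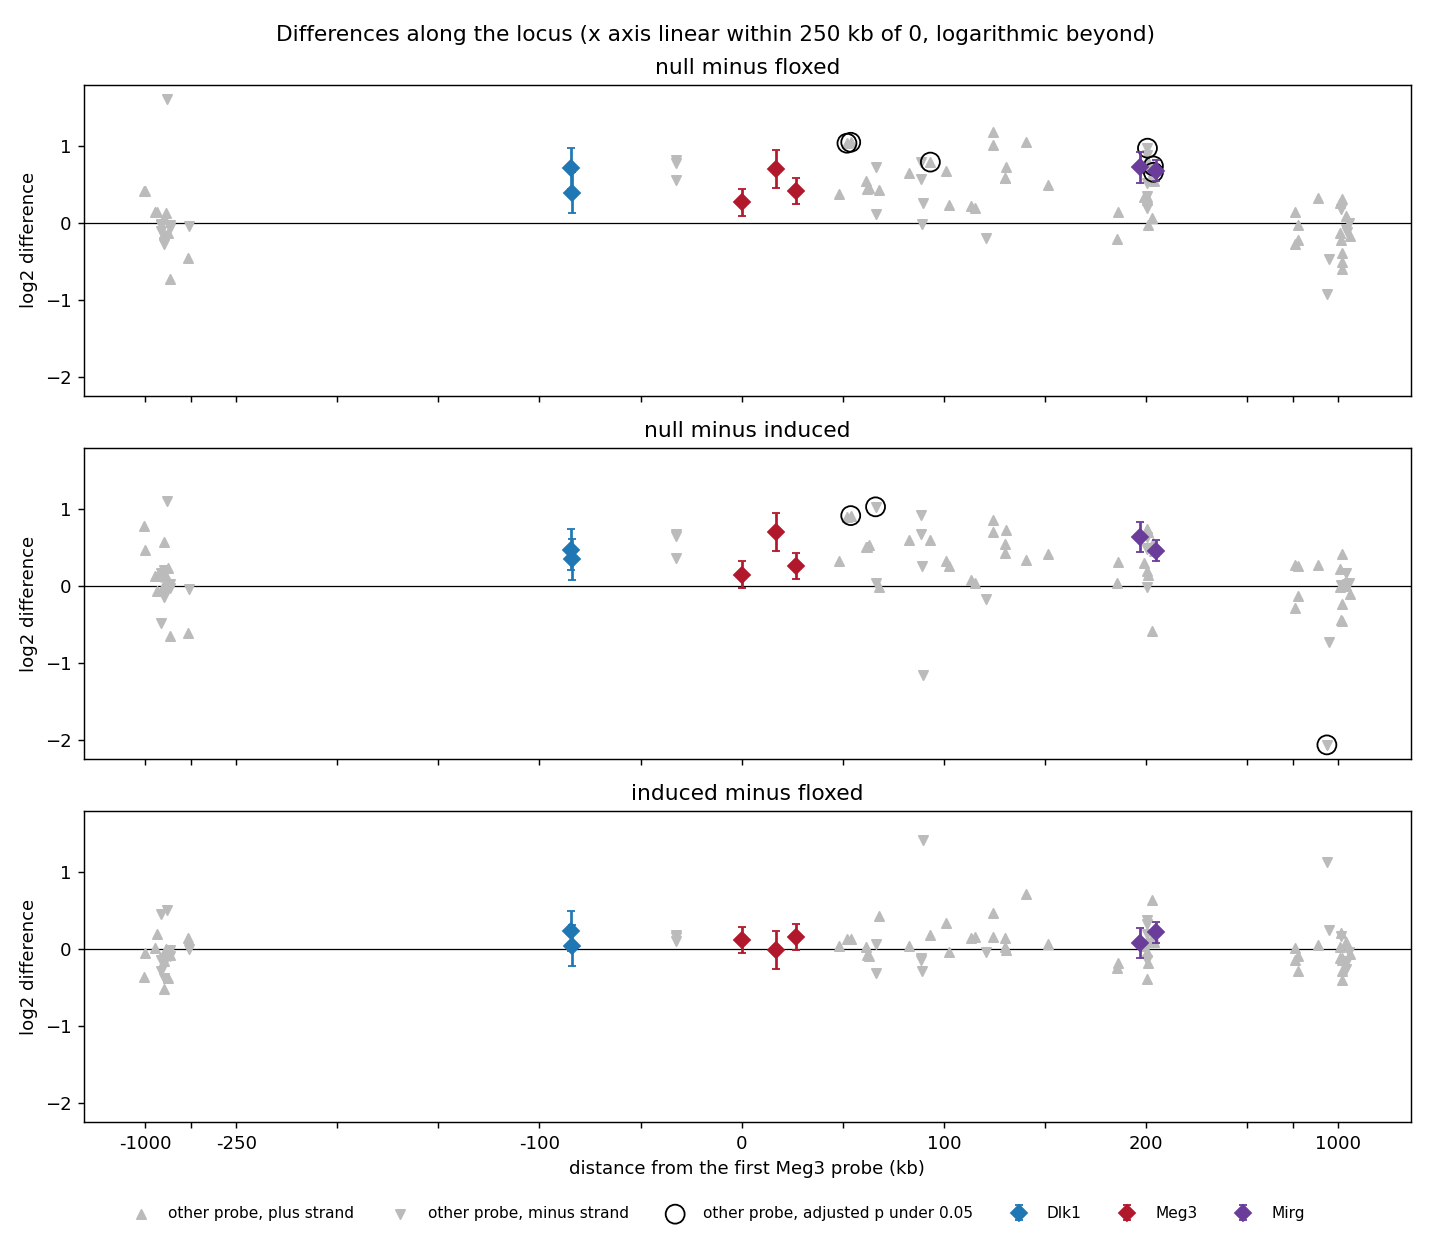
Log2 difference (y axis) of each kept probe within 1 Mb of the locus against its distance in kb from the first Meg3 probe (x axis, linear within 250 kb of 0 and logarithmic beyond), for null minus floxed, null minus induced and induced minus floxed. Coloured diamonds are member probes with their SE, grey triangles the other probes by strand, and circles those that passed. In both comparisons of null cells the probes between Meg3 and Mirg sit mostly above 0 (medians 0.53 and 0.49), and the flanks lie around 0.

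Against induced cells, the same stretch was higher in null cells. Fewer of its probes passed than against floxed cells in the fit of the kept probes on all arrays, which left slide out. Of the 44 probes between Meg3 and Mirg, 2 rose (4.55%, against 0.37% of all kept probes), with a median of 0.49. They were 1110006E14Rik A_55_P2419299 and a minus-strand probe at chr12:110848958-110849017, which rose by 1.03 (limma adjusted p = 0.0463). Every null array was above every induced array for 26 of the 44, where this held for 18.5% of all kept probes. For 2 of the 44 every null array was below every induced array. Downstream of Mirg, a minus-strand probe at chr12:111621786-111621845 fell and was at least 2.12-fold lower in null cells (limma adjusted p = 0.0359). It was above background on 0 null, 3 induced and 0 floxed arrays, so it was kept through induced cells alone. The comparison of induced with floxed cells gave 0 passing probes in the locus by limma, with a median of 0.07 between Meg3 and Mirg and 4 of the 44 there with an unadjusted p under 0.05. Over all kept probes that comparison had 1 passing probe (0.00363%) and 1600 with an unadjusted p under 0.05.

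The number of locus probes that passed depended on floxed 3 and on the slide, while their median stayed between 0.53 and 0.62. Without floxed 3, 16 of the 44 probes between Meg3 and Mirg rose in null against floxed cells, when 12.1% of all probes did so, and the median was 0.55. In that fit 2 of the 3 probes between Dlk1 and Meg3 rose. Upstream of Dlk1 1 of 20 rose and 2 fell, and downstream of Mirg 2 of 20 rose and 2 fell, when 2970 of all 27592 probes fell. With slide as a block, 0 of the 44 passed and the median was 0.62. Only slide 2 held both null and floxed arrays, so that difference is null 3 minus floxed 3, 1 array against 1. Null 3 was above floxed 3 for 44 of the 44 probes, where this held for 14594 of all 27536. On slide 3, the mean of null 1 and 2 was above that of the induced arrays for 36 of the 44, with a median of 0.41. This held for 13751 of all 27536. In null against induced cells with slide as a block, 5 of the 44 rose (11.4%) and 2 fell. Over all probes 1727 rose (6.27%) and 2172 fell. With slide as a random block 11 of the 44 rose (25%) and 1 fell, when 2.52% of all probes rose. In that fit 0 of the 44 rose against floxed cells, so more passed against induced than against floxed cells. Without floxed 3, 14 of the 44 rose in null against induced cells (31.8%), when 7.42% of all probes did so. Leaving out any 1 of the other floxed arrays, null arrays 1 or 2, or induced arrays 2 or 3 left 0 locus probes passing in null against floxed cells.

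**Figure D3:**
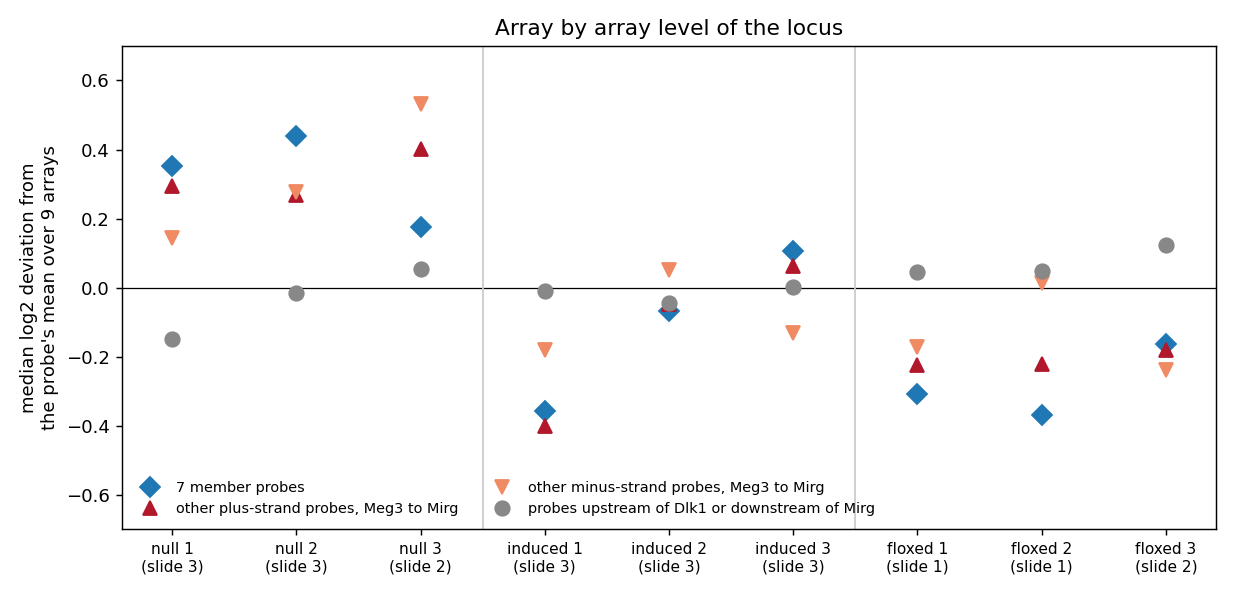
Median log2 deviation of probe groups from each probe's own mean over the 9 arrays (y axis), array by array (x axis, with the slide). Diamonds are the 7 kept member probes, upward and downward triangles the other plus- and minus-strand probes between Meg3 and Mirg, and circles the probes outside the Dlk1 to Mirg stretch. Plus-strand probes lie between 0.27 and 0.40 on null arrays, between -0.40 and 0.06 on induced arrays and between -0.22 and -0.18 on floxed arrays.

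Array by array, the other plus-strand probes between Meg3 and Mirg deviated by 0.29, 0.27 and 0.40 from their means on the null arrays, by -0.40, -0.05 and 0.06 on the induced arrays, and by -0.22, -0.22 and -0.18 on the floxed arrays. Floxed 3, the array that stood apart in Dlk1, lay beside the other floxed arrays here. Induced 1 was the lowest of the 9, induced 2 and 3 lay above every floxed array, and all induced arrays lay below every null array.

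Likeness of pattern over the 9 arrays differed between the probes of 1 gene. The Pearson correlation of the brightest Dlk1 probe was 0.02, -0.10 and 0.69 with Meg3 probes A_51_P455997, A_55_P2033407 and A_52_P196568, and 0.49 and 0.52 with Mirg probes A_66_P121059 and A_55_P2336173. On floxed 3 this Dlk1 probe was at its highest (0.28), and Meg3 probes A_51_P455997 and A_55_P2033407 were at their lowest (3.96 and 1.46). Correlations without floxed 3 were not analysed here. The brightest Meg3 probe correlated at 0.86 and 0.65 with the other Meg3 probes, A_55_P2033407 and A_52_P196568, and at 0.87 and 0.80 with the same Mirg probes. Over 27 other plus-strand probes between Meg3 and Mirg that were above background on all arrays, the median correlation was 0.87 with Mirg, 0.74 with Meg3 and 0.46 with Dlk1, and 6 of them were among the 50 probes closest to Mirg of 23789. The named genes closest to Dlk1 were Pla2g7 (0.990), Cbr3 (0.980), Gemin4, Smpdl3b and Prr19 (0.978 to 0.977). Those closest to Meg3 included Fam160b1 (0.947), Gramd1b (0.947), Zfp57 (0.934), which protects imprints from demethylation, and the mitochondrial ATP6 (0.930). Those closest to Mirg were Kirrel2 (0.977), Ikzf4 (0.962), Nsd1 (0.962), Slc26a10 (0.961) and Fasn (0.956). All arrays share the slide layout above, and these correlations describe 9 arrays only.

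Of 52 listed genes from other imprinted loci 40 were kept. In null against floxed cells 0 rose and 2 fell (0.832% of all kept probes fell), with a median of 0.04 against 0.02 over all kept probes, and 15 had an unadjusted p under 0.05, as did 21.9% of all kept probes. Osbpl5, a lipid transport protein of the Kcnq1 domain, fell by -0.95 (limma adjusted p = 0.00530), and Igf2, the fetal growth factor, was not well above background on any null array and was at least 1.87-fold lower (limma adjusted p = 0.0226). Osbpl5 and Igf2 also fell against induced cells, where 0.948% of all kept probes fell, Osbpl5 by -0.70 (limma adjusted p = 0.0228) and Igf2 by at least 1.74-fold (limma adjusted p = 0.0297). Among well-known members that did not pass against floxed cells, H19 was at 0.51 and Mest at 0.97 (limma adjusted p = 0.203 and 0.0972). The 21 kept paternally expressed genes had a median of 0.07 and the 19 maternally expressed ones of -0.00. Without floxed 3, 19 imprinted genes passed, 11 rising and 8 falling, when 22.9% of all probes passed, and with slide as a block 0 did.

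Genes that set or guard imprints were mostly without a passing change. Of 23 listed, 22 were kept, 0 rose and 1 fell in null against floxed cells, where 0.832% of all kept probes fell, with a median of 0.22 against 0.02. An unadjusted p under 0.05 was found for 10 of the 22, against 21.9% of all kept probes. Without floxed 3, 7 rose and 1 fell, when 22.9% of all probes passed. The one that fell was Dppa3, a maternal factor that guards methylation in the early embryo and whose presence favours an unsilenced Meg3 in reprogrammed mouse cells. It fell by -1.44 (limma adjusted p = 0.00470) against floxed and by -1.13 (limma adjusted p = 0.0153) against induced cells. Zfp57 had a null minus floxed difference of 0.40 (limma adjusted p = 0.194), the maintenance methyltransferase Dnmt1 of 0.15 (limma adjusted p = 0.530), and the de novo methyltransferase Dnmt3b of 0.94 (limma adjusted p = 0.120). In induced against floxed cells 0 imprinted genes and 0 regulators passed by limma, 3 and 2 had an unadjusted p under 0.05, and the medians were -0.02 and 0.10.

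The Notch pathway, which Dlk1 is known to restrain, gave 0 passing genes of 22 kept of 29 listed in each of the 3 comparisons by limma, with a median of 0.14 in null against floxed cells. The receptor Notch1 was at 0.62 (limma adjusted p = 0.153), the ligand Jag1 at 0.57 (limma adjusted p = 0.0536), the target Hes1 at -0.08 (limma adjusted p = 0.804), and the Dlk1 relative Dlk2 at 0.01 (limma adjusted p = 0.958). An unadjusted p under 0.05 was found for 7 of the 22 in null against floxed cells, 7 in null against induced cells and 1 in induced against floxed cells. Over all kept probes, null against induced cells had 6358 with an unadjusted p under 0.05 and 363 that passed (1.32%).

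**Figure D4:**
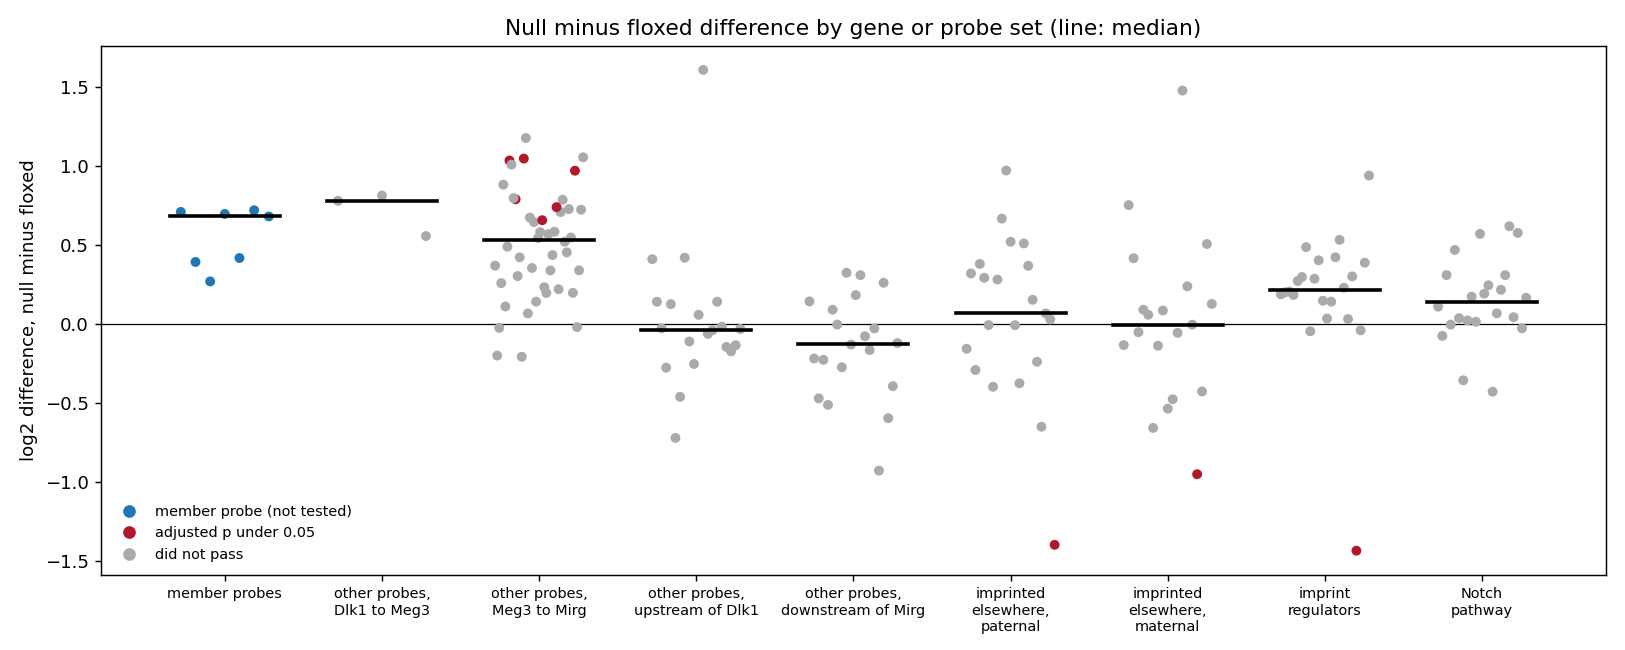
Log2 difference of null minus floxed cells (y axis) for each kept probe or gene in 9 sets (x axis), with a line at the set's median. Red points passed, grey points did not, and blue member probes were not tested. The median is 0.78 for the 3 other probes between Dlk1 and Meg3, 0.53 for those between Meg3 and Mirg, and -0.04 and -0.13 for the flanks. It is between -0.00 and 0.22 for imprinted genes elsewhere, imprint regulators and the Notch pathway.

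Most kept fibroblast and trophectoderm markers fell in null against floxed cells, where 0.832% of all kept probes fell. In induced against floxed cells 0 markers of other cell types passed by limma. Of 12 fibroblast markers 7 were kept, and 6 of the 7 fell in null against floxed cells, among them Col1a1 by -2.39 (limma adjusted p = 0.000758) and Acta2 by -3.55 (limma adjusted p = 0.000964). The seventh, Thy1, had a null minus floxed difference of 1.37 (limma adjusted p = 0.113), with every null array above every floxed array. The summed level of the 7 was 8.77 to 10.6 times the array's 75th percentile in null cells, 20.1 to 27.7 in induced cells and 30.0 to 36.7 in floxed cells, and Postn, Lum, Dcn, Pdgfra and Pdgfrb were not kept. Tagln, the brightest of the 7, made up most of this sum, with mean levels of 2.62 in null, 4.08 in induced and 4.69 in floxed cells. Trophectoderm markers were all kept and 4 of 6 fell, with sums of 36.1 to 39.3 in null cells, 68.0 to 93.6 in induced cells and 78.0 to 116 in floxed cells. Of 6 neural markers 5 were kept and Nes rose by 0.59 (limma adjusted p = 0.0439), with sums of 10.8 to 14.2 in null cells, 7.49 to 8.67 in induced cells and 7.83 to 10.5 in floxed cells. Of 6 endoderm markers only Gata4 was kept, at a sum of 0.110 to 0.153 in null cells, 0.151 to 0.159 in induced cells and 0.0969 to 0.149 in floxed cells. The part of these markers in the locus's values was not tested.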

How the data were processed

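Total RNA of the 9 samples (50 ng each) was labelled with Cy3. Per the file headers, the authors deposited linear spot intensity written by Feature Extraction 10.7.3.1 of Agilent, whose processed signal is background-subtracted and not scaled between arrays. The deposited value table equals the mean signal for 100% of values within 1%. Control and outlier spots were left out, spots of a probe averaged, and log2 taken relative to the 75th percentile. Groups were compared in 1 limma 3.58.1 fit (R 4.3.3) on 27536 probes, two-sided, with Benjamini-Hochberg adjustment and a threshold of 0.05. The fit was tested on simulated data. RefSeq symbols of GRCm38.p6 named 27235 probes and 28446 kept the files' name. A gene of a list is its brightest probe.

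The members, lists and named genes were chosen with earlier results of these data known. Named genes were the member probes, Xpc, up to 5 passing neighbours and 4 passing list genes per direction, and the 5 named genes most like each member; list genes named without passing were chosen after their values were seen. One gene that the rule names and 1 member probe's sequence are not reported here. Alternatives were other scalings, backgrounds, filters, blocks and each array left out. Same-numbered arrays correlated in their deviations between -0.10 and 0.08, so the numbers do not pair the samples. Scan and slide coincided.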

Additional observations from a re-analysis of the deposited data

How the results depend on the processing

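The sign of every null minus induced and null minus floxed difference of the Meg3 and Mirg probes held in all 19 alternatives, and 447 of 456 member differences moved by less than 1 SD. Both counts include alternatives that cannot move a member difference. These are the changed filters, 1 probe per gene, the replicate block, and leaving out an array of the group not compared. With slide as a block, the null minus floxed differences of the Dlk1 probes turned to -0.026 and -0.35. The median over the brightest probes of Dlk1, Meg3 and Mirg was 0.42 for null minus floxed and 0.35 with normexp background, leaving out Rtl1, a choice made after seeing the data. With Rtl1, which is below background in both groups, it was 0.52 and 0.32.

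Counts of passing probes moved far more, and the cause was not tested. They are given in the order null minus floxed, then null minus induced, then induced minus floxed where it changed. Over all probes they were 397, 363 and 1. With slide as a block they were 28, 3899 and 162, with slide as a random block 110, 1770 and 0, and with normexp 854, 1003 and 0. With no filter they were 66, 52 and 0. Median scaling gave 551 for null minus induced and 3 for induced minus floxed. Quantile normalization, the deposited table and a filter on all 9 arrays gave 0 for induced minus floxed. For locus neighbours (6, 3 and 0) slide as a block gave 0, 14 and 1, the random block 0 and 13, normexp 11 and 10, no filter 0 and 0, and 1 probe per gene 1 for null minus floxed. These counts hold rises and falls together. Of the 14, 1 rose and 2 fell upstream of Dlk1, and 5 rose and 2 fell between Meg3 and Mirg. Downstream of Mirg 0 rose and 4 fell. Over all probes in that fit 1727 rose and 2172 fell. For imprinted genes (2 and 2) slide as a block gave 0 and 14, the random block 1 and 8, normexp 5 and 5, no filter 0 and 0, and the all-array filter and 1 probe per gene 4 for null minus floxed. For imprint regulators (1 and 1) slide as a block gave 0 and 3, normexp 2 and 3, quantile normalization 2 for null minus floxed, and median scaling and the random block 2 and no filter 0 for null minus induced. For the Notch pathway (0 and 0) normexp gave 2 and 1, quantile normalization, the deposited table, the all-array filter and 1 probe per gene 1 for null minus floxed, and slide as a block 5 and the random block 1 for null minus induced. Xpc in null minus floxed had an adjusted p of 0.0525 with no filter (-1.68) and of 0.200 with slide as a block (-1.53), both by limma.

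With the replicate block, the counts were 159 and 204 over all probes, 1 and 1 for locus neighbours and 1 for imprinted genes in null minus induced. It moved no other count by over 1.5 times.

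Leaving out 1 array at a time gave 88 to 6322, 66 to 4509 and 0 to 100 passing probes, 0 to 25 and 0 to 19 locus neighbours, 1 to 19 and 0 to 14 imprinted genes, 1 to 8 and 0 to 3 imprint regulators, and 0 to 4 and 0 to 5 Notch genes. The highest count of each came without floxed 3. Xpc lay between -1.88 and -1.54 in null minus floxed and between -1.51 and -1.30 in induced minus floxed. With 3 arrays a group and Rtl1 near background, small differences cannot be resolved.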
